A study of Mus musculus with 15 samples.

Results

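The constant region genes of the immunoglobulins, with 2 genes that plasma cells use to assemble antibodies, were followed in the liver of 15 female C57BL/6 mice. The set held 9 genes chosen by symbol: the heavy chain constant genes Ighm, Igha, Ighg1, Ighg2b, Ighg2c and Ighg3, the kappa light chain constant gene Igkc, and Jchain and Mzb1. These are 9 of 55450 gene identifiers in the count table, and all 9 passed the filter on low counts that left 15808 genes. The study asked what aging and Protectin DX (PDX), a lipid mediator made from docosahexaenoic acid, do to the liver transcriptome. At the start of the study the Adult group (A1 to A5) was 6 months old and the Old group (O1 to O5) 22 months old, and both were gavaged daily with corn oil. The PDX group (P1 to P5) was as old as the Old group and received PDX in corn oil at 30 ng per g of body weight, and gavage lasted 9 weeks in all groups. Each mouse gave 1 poly(A) library with no pooling, and the labels name no transgene or deletion.

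Antibodies are built from 2 kinds of chain. A B cell joins a variable segment to the heavy chain constant gene Ighm first and so makes IgM, and it can later switch to a downstream constant gene to make IgG or IgA. Plasma cells are the antibody-secreting descendants of B cells and fill much of their messenger RNA pool with immunoglobulin transcripts. The liver holds few such cells among its hepatocytes, but it takes up IgA from blood and carries B cells in its sinusoids. In RNA from whole tissue, more cells of a type and more RNA per cell cannot be told apart.

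The 6 heavy chain genes lie together on chromosome 12 of GRCm38 (the mm10 build that the files use), on the minus strand and in the order in which switching reaches them. Ighm (ENSMUSG00000076617) is at chr12:113418558-113422730, Ighg3 (ENSMUSG00000076615) at chr12:113356224-113361232 and Ighg1 (ENSMUSG00000076614) at chr12:113325240-113330523. Ighg2b (ENSMUSG00000076613) is at chr12:113302965-113307933, Ighg2c (ENSMUSG00000076612) at chr12:113285325-113288932 and Igha (ENSMUSG00000095079) at chr12:113254830-113260236. Igkc (ENSMUSG00000076609) is at chr6:70726435-70726966 on the plus strand, and Jchain (ENSMUSG00000067149) is at chr5:88519809-88527891 on the minus strand. The first 60 bases of the first constant exon (CH1) of each heavy chain gene are shown because reads of 50 bases had to tell these genes apart, and capitals mark the bases at which an IgG gene differs from Ighg1 at the same position, counted from the start of the exon.
Ighg1: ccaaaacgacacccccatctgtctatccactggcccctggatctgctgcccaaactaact
Ighg2b: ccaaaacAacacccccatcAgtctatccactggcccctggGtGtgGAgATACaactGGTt
Ighg2c: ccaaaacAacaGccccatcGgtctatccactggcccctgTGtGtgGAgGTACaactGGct
Ighg3: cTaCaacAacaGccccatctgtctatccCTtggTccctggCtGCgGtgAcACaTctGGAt
Igha: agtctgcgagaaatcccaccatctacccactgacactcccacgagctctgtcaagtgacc
Ighm: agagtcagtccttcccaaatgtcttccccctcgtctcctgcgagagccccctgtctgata

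The IgG genes differed from Ighg1 at 13 (Ighg2b), 14 (Ighg2c) and 18 (Ighg3) of these 60 bases. Over whole exons, windows of 50 bases that another annotated gene also holds made up 5.49% of Ighg2c, 4.15% of Ighg2b, 1.58% of Ighg3 and 0.393% of Ighg1. For Ighm, Igha and Igkc the share was 0%. Reads that match 2 places alike were not counted, so the levels of the IgG genes can be slightly low. For Mzb1 (ENSMUSG00000024353, chromosome 18) the share was 53.5%, because an annotated transcript of a neighbouring gene, SPATA24, overlaps it, and its level is therefore uncertain.

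Between 22424383 and 36070835 read pairs were counted per library. Levels are given as CPM, the counts scaled to a common library size, and a gene is called where its p in the edgeR quasi-likelihood test, adjusted by Benjamini-Hochberg over all 15808 genes, was under 0.05. The liver label was checked by 6 hepatocyte markers, which summed to between 72245 and 208821 CPM. The lowest sums were those of O5 and O2 (78717 CPM), below the 119281 CPM of the next mouse, so results are also given without these 2 mice. O2 also had the highest sums of T cell markers (201 CPM, against at most 38.6 CPM in the other mice) and of neutrophil markers (234 CPM, against at most 72.8 CPM).

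In the liver of Old mice, transcripts of the IgM heavy chain and the kappa light chain were more abundant than in Adult mice. Ighm rose 13.6-fold, Igkc rose 11.6-fold and Mzb1 rose 11.4-fold, whereas no IgG gene and not Igha passed the test. Without O2, the highest Old mouse for these 3 genes, all 3 were still called but their log2 fold changes fell from 3.76 to 3.22 (Ighm), from 3.54 to 2.56 (Igkc) and from 3.51 to 2.73 (Mzb1). Of the 9 genes, 3 were called higher and 0 lower, where 6.78% of all genes tested were called (4.71% higher). The median log2 fold change of the 9 genes was 1.83, against 0.07 over all genes tested, and the fitted change of each of the 9 was upward. For Ighm, Igkc, Jchain and Mzb1, 4 of the 9, all Old mice lay above all Adult mice, as they did for 3.65% of the genes tested.

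**Figure D1:**
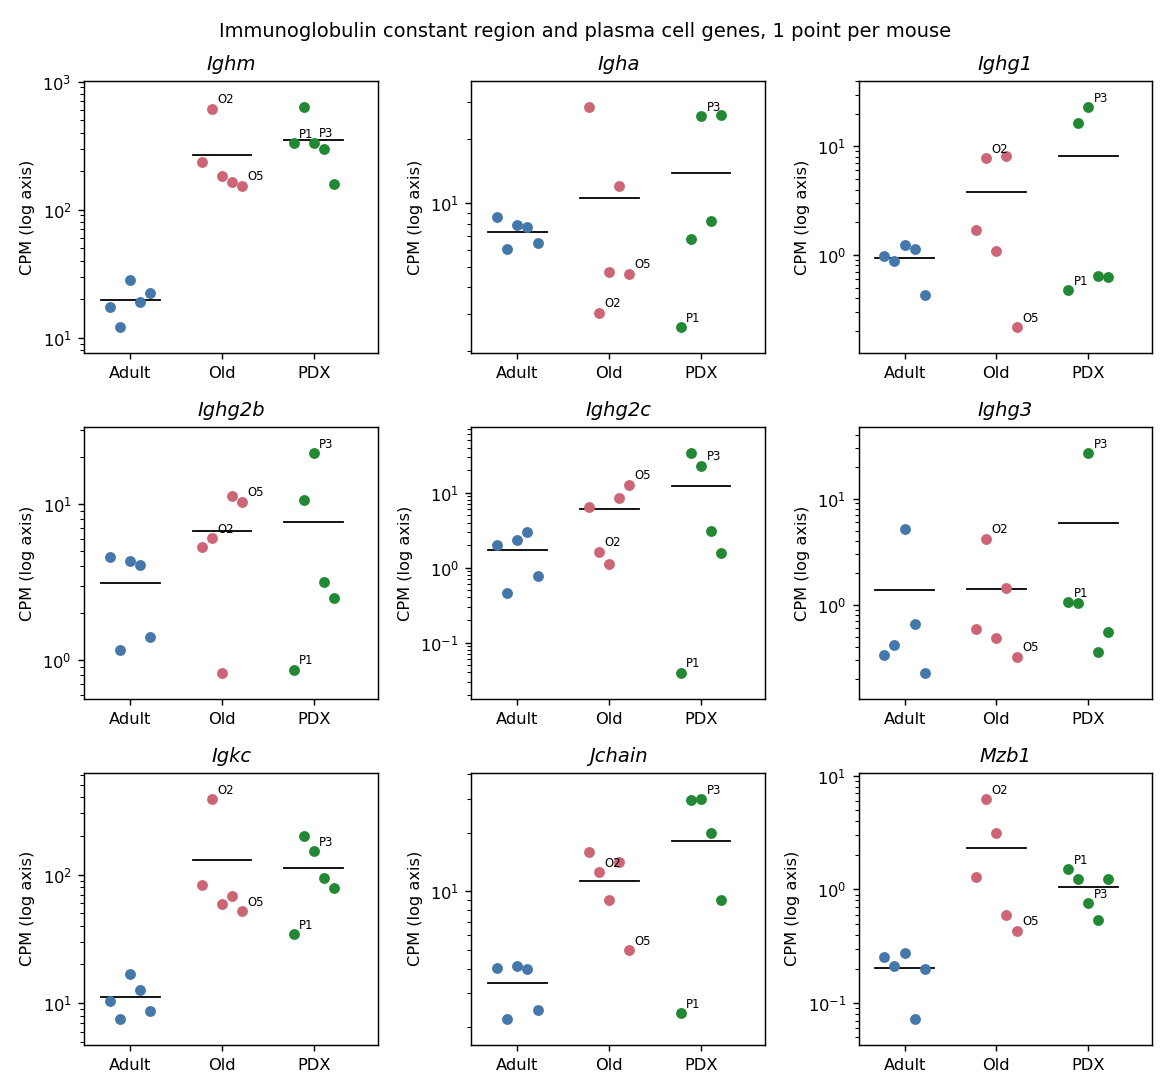
Levels of the 9 genes in CPM on log axes, each panel with its own range, with 1 point per mouse and a line at the group mean (n = 5 per group). All Old and PDX mice lay above all Adult mice for Ighm, Igkc and Mzb1, whereas the groups overlapped for Igha and the 4 IgG genes.

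Ighm encodes the constant region of the mu chain, the heavy chain of IgM. Its level was 17.4, 12.1, 28.0, 19.0 and 22.4 CPM in Adult mice A1 to A5. In Old mice O1 to O5 it was 235, 612, 181, 164 and 153 CPM, and in PDX mice P1 to P5 it was 329, 629, 334, 300.0 and 158 CPM. The lowest of the older mice thus lay far above the highest Adult mouse, and the Old and PDX groups overlapped. Between Old and Adult mice the log2 fold change was 3.76 ± 0.45 (SE, adjusted p = 0.00118 in edgeR). Without O2, the highest Old mouse, it was 3.22 (adjusted p = 0.000435 in edgeR), and without O2 and O5 it was 3.30 (adjusted p = 0.000291).

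Igkc encodes the constant region of the kappa light chain, which most mouse antibodies carry whatever their heavy chain. The Adult mice had 10.4, 7.57, 16.8, 12.7 and 8.61 CPM, and the Old mice 83.6, 389, 58.6, 68.7 and 52.2 CPM. The PDX mice had 34.3, 200.0, 153, 93.8 and 79.3 CPM. Again none of the older mice lay within the Adult range, with O2 highest and P1 lowest among the older mice. The log2 fold change between Old and Adult mice was 3.54 ± 0.61 (SE, adjusted p = 0.00897 in edgeR) and 2.56 without O2 (adjusted p = 0.00554).

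Igha encodes the heavy chain of IgA, the antibody of mucosal surfaces that the liver also passes into bile. It was steady among Adult mice, at 8.57, 6.09, 7.89, 7.72 and 6.46 CPM. Old mice had 28.3, 3.04, 4.75, 12.1 and 4.65 CPM and PDX mice 2.604, 6.78, 25.7, 8.25 and 26.0 CPM. In both older groups some mice lay above and some below every Adult mouse. The group means were 7.35 ± 1.04, 10.6 ± 10.5 and 13.9 ± 11.1 CPM (SD, n = 5 each) in Adult, Old and PDX mice, and the log2 fold change between Old and Adult mice was 0.52 ± 0.62 (SE, adjusted p = 0.622 in edgeR). Without O1 it was -0.24 (adjusted p = 0.797).

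The 4 IgG genes, which switched B cells use, were low in Adult mice and uneven in the older mice. Mean levels in Adult and Old mice were 0.932 ± 0.311 and 3.81 ± 3.88 CPM for Ighg1, 3.10 ± 1.67 and 6.73 ± 4.18 CPM for Ighg2b, and 1.73 ± 1.08 and 6.11 ± 4.89 CPM for Ighg2c (SD, n = 5 each). For Ighg3 they were 1.37 ± 2.15 and 1.41 ± 1.61 CPM. The spread among Old mice was as large as their mean for Ighg1 and Ighg3, and the groups overlapped for all 4 genes. Log2 fold changes between Old and Adult mice ran from 0.10 ± 1.22 for Ighg3 (SE, adjusted p = 0.966 in edgeR) to 2.04 ± 1.10 for Ighg1 (SE, adjusted p = 0.24). For Ighg3 the sign turned when any of A1, A2, A4, A5 or O2 was left out, with values from -0.87 to 1.79 over all such fits.

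Ighg2c was 12.8 CPM in O5 and 33.8 CPM in P2, but P1 had 1 count (0.0395 CPM) in 26113995 counted pairs. Ighg1 was 0.216 CPM (6 counts) in O5, which had the highest Ighg2c of the Old mice, and 7.81 CPM in O2, where Ighg2c was 1.64 CPM. Ighg3 was 26.8 CPM in P3 and at most 1.07 CPM in the other PDX mice. The order of the IgG genes therefore differed from mouse to mouse within a group.

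Jchain encodes the joining chain that links IgM and IgA units into polymers. Adult mice had 4.02, 2.22, 4.15, 3.99 and 2.47 CPM, Old mice 15.9, 12.6, 9.01, 14.2 and 4.98 CPM, and PDX mice 2.37, 29.4, 29.9, 20.0 and 9.01 CPM. All Old mice lay above all Adult mice, whereas P1 lay within the Adult range. The log2 fold change between Old and Adult mice was 1.75 ± 0.52 (SE) and just missed the threshold (adjusted p = 0.0541 in edgeR). It passed in DESeq2 (adjusted p = 0.0069), in a fit of the Old and Adult mice alone (adjusted p = 0.0393) and without O2 and O5 (adjusted p = 0.0469). With 1 mouse left out at a time the adjusted p in edgeR ran from 0.0298 to 0.123. It was 0.0952 without A1 and 0.123 without A2, so the call did not hold in all such fits.

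Mzb1 is a chaperone of the endoplasmic reticulum that helps IgM fold. It was sparse in Adult mice, with 2 to 9 counts per library and 0.0732 to 0.274 CPM. Old mice had 1.27, 6.23, 3.13, 0.594 and 0.433 CPM and PDX mice 1.50, 1.24, 0.757, 0.536 and 1.24 CPM, all above the Adult range. The log2 fold change between Old and Adult mice was 3.51 ± 0.68 (SE, adjusted p = 0.0151 in edgeR), 2.73 without O2 (adjusted p = 0.0214) and 3.54 in a fit of these 2 groups alone, where the call was lost (adjusted p = 0.0658).

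**Figure D2:**
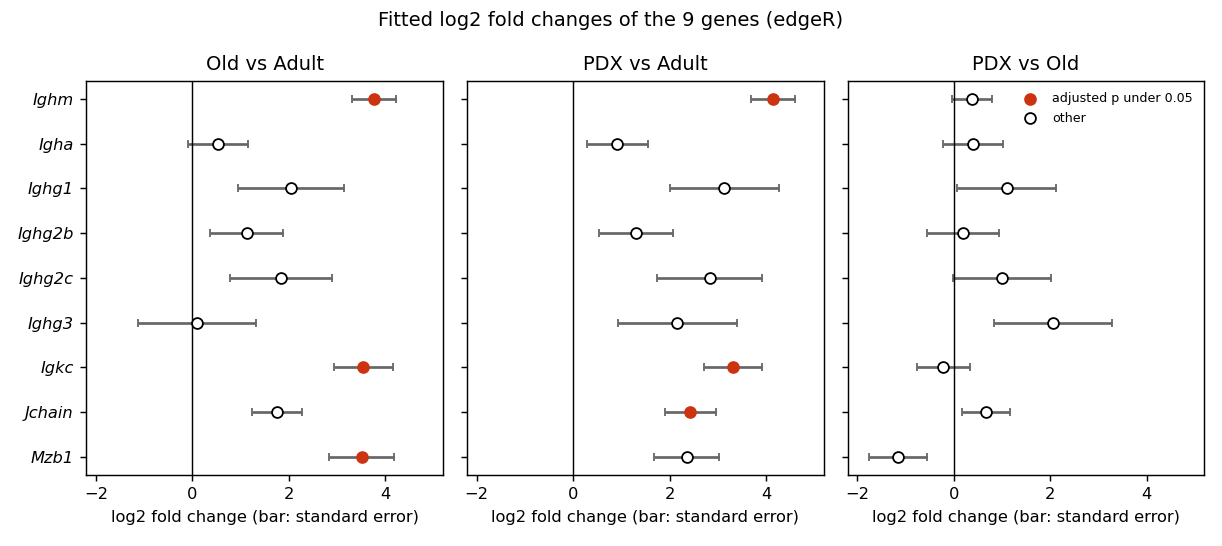
Fitted log2 fold changes with standard errors for the 9 genes in the 3 comparisons, with filled points where the adjusted p in edgeR was under 0.05. Ighm, Igkc and Mzb1 are filled between Old and Adult mice, Ighm, Igkc and Jchain between PDX and Adult mice, and none between PDX and Old mice.

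Given as a share of the 6 heavy chain genes, the transcripts of Old mice were more IgM and less IgA than those of Adult mice. Shares were computed per mouse from counts per kb of exon, since the exons of the 6 genes differ in length. They are parts of the same sum, so a rise of Ighm by itself lowers the shares of the other genes. A lower share is therefore not a result apart from the rise of Ighm. The Ighm share was 57.0, 64.3, 62.6, 57.8 and 75.9% in A1 to A5 and 87.2, 97.2, 96.4, 82.1 and 84.1% in O1 to O5, with no overlap. The means were 63.5 ± 7.56% and 89.4 ± 7.02% (SD, n = 5 each), and the difference of 25.9 percentage points had the smallest p that 5 mice against 5 allow (exact two-sided permutation p = 0.00794, adjusted p = 0.0333 over 21 share comparisons).

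The Igha share was 17.4 ± 4.02% in Adult mice and 3.13 ± 2.79% in Old mice (SD, n = 5 each, exact permutation p = 0.00794, adjusted p = 0.0333). Among Adult mice it ran from 12.4 to 22.8% and among Old mice from 0.342 to 7.43%. The level of Igha itself did not pass the test, as given above, and its mean was 7.35 CPM in Adult and 10.6 CPM in Old mice. The lower share thus went with a higher Ighm in the sum and without a lower mean level of Igha. The Old mean, however, held O1 at 28.3 CPM, and the median was 4.75 CPM in Old and 7.72 CPM in Adult mice. In O2, O3 and O5 Igha was below every Adult mouse. How far Ighm and Igha each lowered the share was not tested.

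IgG genes together made up 19.1 ± 7.75% in Adult mice and 7.48 ± 6.00% in Old mice (SD, n = 5 each). Their shares in Adult and Old mice were 2.26 and 0.972% for Ighg1, 6.73 and 2.06% for Ighg2b, 7.42 and 4.14% for Ighg2c, and 2.66 and 0.308% for Ighg3. After adjustment only the Ighg3 difference passed (exact permutation p = 0.00794, adjusted p = 0.0333), and A3 alone had an Ighg3 share of 8.71% where the other Adult mice had at most 1.68%. Without any 1 of the 5 Old mice its exact permutation p was between 0.0714 and 0.0794. The Ighg2b difference had an exact permutation p of 0.0317 (adjusted p = 0.0952).

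**Figure D3:**
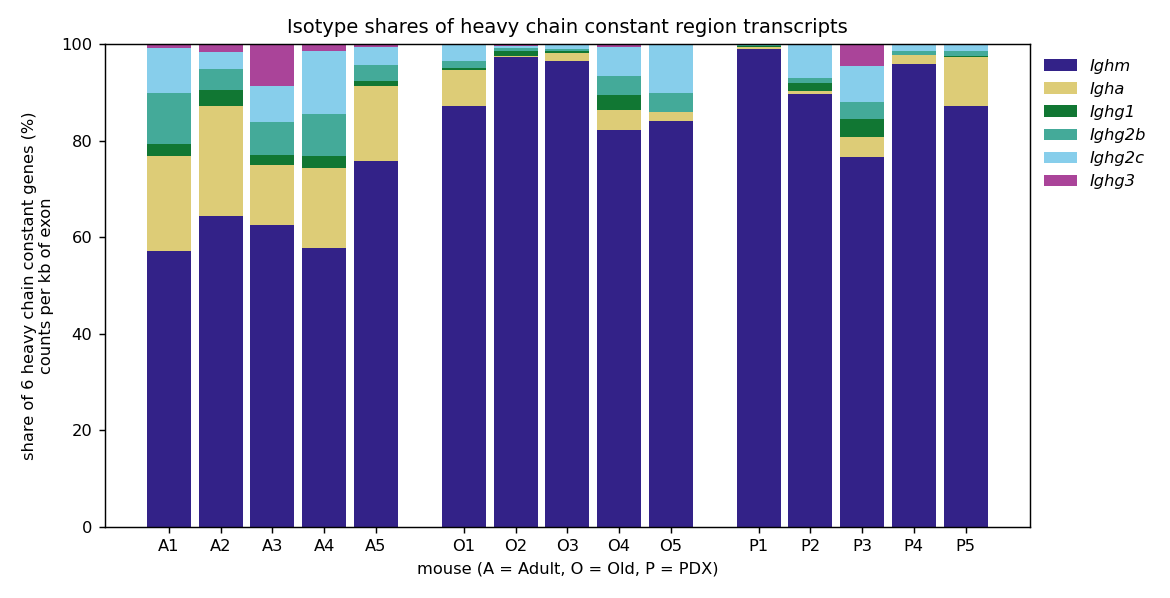
Stacked bars of the share of each heavy chain constant gene, in percent of the 6 genes by counts per kb of exon, with 1 bar per mouse. The Ighm share runs from 57.0 to 75.9% in Adult mice, from 82.1 to 97.2% in Old mice and from 76.5 to 98.9% in PDX mice.

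Among light chain constant genes, Igkc made up 88.0 ± 2.77% in Adult mice, 92.5 ± 4.49% in Old mice and 92.3 ± 5.90% in PDX mice (SD, n = 5 each). The difference between Old and Adult mice did not pass (exact permutation p = 0.111, adjusted p = 0.259). The lambda genes rose too: Iglc1, Iglc2 and Iglc3 were called higher in Old mice, with log2 fold changes of 2.46, 2.73 and 2.63 (adjusted p = 0.0142, 0.0318 and 0.0399 in edgeR), although 22.3% of the 50-base windows of Iglc3 are shared with other genes. Without O2 the Iglc1 call held (2.33, adjusted p = 0.0229) and those of Iglc2 (1.47, adjusted p = 0.0632) and Iglc3 (1.89, adjusted p = 0.101) were lost. Per kb of exon, kappa and lambda together were 1.22 to 1.64 times the 6 heavy chain genes in Adult mice and 1.07 to 2.31 times in Old mice, and the lowest value of all was 0.446 in P1.

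Ighd, which naive B cells express with Ighm from the same transcript, did not follow it. It had 69 to 107 counts per Adult library and 4 to 127 per Old library, and its log2 fold change was -0.01 ± 0.61 (SE, adjusted p = 0.996 in edgeR). There were 4.86 to 10.6 Ighm counts for each Ighd count in Adult mice, 37.9 to 1064 in Old mice and 35.2 to 307 in PDX mice. The IgE gene Ighe had 1 count among the Adult libraries and 0 in the Old libraries, which allows up to 0.127 CPM in each (3 counts per library, for counting error only). It had 8, 2 and 18 counts in P2, P3 and P5.

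Genes that mark plasma cells or the B cells before them rose in part. Of 11 tested regulators and surface markers of plasma cells, 7 were called higher and 0 lower between Old and Adult mice. Over all genes tested, 4.71% were called higher. The median log2 fold change of the 11 was 2.25, and with any 1 Adult mouse left out 1 to 2 of them were called higher. Derl3, which helps clear misfolded proteins from the endoplasmic reticulum, led with 4.32 ± 0.74 (SE, adjusted p = 0.00836 in edgeR), and Creld2, another endoplasmic reticulum protein, rose by 1.66 (adjusted p = 0.0171). Derl3 was highest in O5, O4 and O1 (21.5, 18.7 and 12.3 CPM) and lower in O2 and O3 (4.33 and 1.58 CPM), where the B cell markers were highest. Creld2 was at 23.2 to 154 CPM in every library, and its level in O3 (48.7 CPM) lay within the Adult range. Which cells the Derl3 and Creld2 transcripts came from was not tested. Of the transcription regulators on this list, Pou2af1 rose by 2.46 (adjusted p = 0.0198), Irf4 by 2.52 (adjusted p = 0.0247) and Prdm1 by 2.36 (adjusted p = 0.0364). All 3 were highest in O2 and O3. Prdm1 was 6.76 CPM in O2 and 1.96 CPM in O3, 0.409 to 0.938 CPM in the other Old mice and 0.228 to 0.585 CPM in Adult mice. Without O2 the log2 fold changes were 2.02 for Pou2af1 (adjusted p = 0.0346), 1.77 for Irf4 (adjusted p = 0.0404) and 1.28 for Prdm1, whose call was lost (adjusted p = 0.0821). Xbp1 had a log2 fold change of 0.25 (adjusted p = 0.36) and the surface marker Sdc1 one of -0.12 (adjusted p = 0.776), and Sdc1 was at 187 to 558 CPM in every library. Tnfrsf17, a receptor of long-lived plasma cells, had 0 to 4 counts per library and was not tested.

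Of 15 B cell markers, 6 were called higher and 1 lower, with a median log2 fold change of 2.24, where 6.78% of all genes tested were called (4.71% higher). Ms4a1 (CD20) rose by 3.11 ± 0.77 (SE, adjusted p = 0.031 in edgeR) and Tnfrsf13c, the receptor for the survival factor BAFF, by 3.15 (adjusted p = 0.0289). Cr2, the complement receptor of follicular B cells, fell by 3.70 on the log2 scale (adjusted p = 0.0121) from 10 to 20 counts per Adult library to 0 to 3 per Old library. Without O2 the Cr2 call held and no B cell marker was called higher, with adjusted p of 0.0607 for both Ms4a1 and Tnfrsf13c in edgeR. Without O2 and O5, however, 6 markers were called higher and 1 lower. Leaving out O1, O3, O4 or O5 alone gave 10, 4, 11 and 11 called higher. The calls over all genes tested changed with the mouse left out as well, from 156 to 2178 against 1072 in the main fit. The changes in these counts are therefore not particular to B cell markers.

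B cell markers and Ighm did not move together in every mouse. The 15 B cell markers summed to 17.9 to 27.1 CPM in Adult mice, to 235 CPM in O2 and 183 CPM in O3, and to only 25.4 to 35.3 CPM in O1, O4 and O5. Ighm in these last 3 mice was nevertheless 153 to 235 CPM. O2 and O3 thus had raised B cell markers as well as raised Ighm, whereas in the other 3 Old mice Ighm was raised with B cell markers at or near the Adult range. In PDX mice the B cell markers summed to 49.9 to 126 CPM, above every Adult mouse. This side-by-side reading was made after the values were seen and was not tested.

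**Figure D4:**
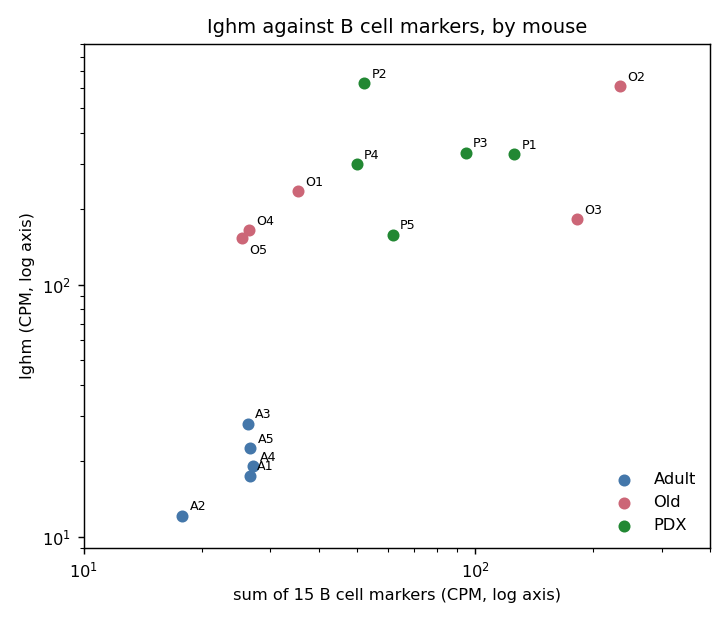
Ighm against the summed level of 15 B cell markers, both in CPM on log axes, with 1 labelled point per mouse. O1, O4 and O5 have a marker sum of 25.4 to 35.3 CPM with Ighm between 153 and 235 CPM, whereas O2 and O3 have sums of 235 and 183 CPM.

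Each antibody chain carries 1 variable segment, and in 2 Old mice, O2 and O3, a single heavy chain segment took most of the counts. The leading heavy chain segment took 13.4% in O1, 11.3% in O4 and 41.0% in O5 (95% Wilson intervals 10.8 to 16.6%, 9.06 to 13.9% and 37.4 to 44.6%). In O2, Ighv1-55 took 89.4% of 1961 counts on heavy chain variable segments (95% Wilson interval 88.0 to 90.7%) and Igkv17-127 took 94.9% of 7634 on kappa variable segments, and in O3 Ighv1-11 took 83.4% of 583 (80.1 to 86.2%). The leading segment took 7.28 to 30.5% in Adult mice and 18.0 to 52.3% in PDX mice, and intervals cover counting error only.

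Class switching is the change from IgM to another isotype. Of 13 genes with a part in it, 7 could be tested and 1 was called between Old and Adult mice, where 6.78% of all genes were, the uracil glycosylase Ung, which rose by 1.28 (adjusted p = 0.0319 in edgeR). Batf had a log2 fold change of 1.87 (adjusted p = 0.0644) and Apex1 one of 0.40 (adjusted p = 0.0719). Without O2, Ung (1.31) and Apex1 (0.49) were called (adjusted p = 0.0464 for each in edgeR).

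Of the 9 tested genes that keep plasma cells alive or guide them to tissue, 5 were called higher and 0 lower, where 4.71% of all genes were called higher. The homing receptor Cxcr4 rose by 2.27 (adjusted p = 0.0264 in edgeR), Tnfrsf13b by 2.92 (adjusted p = 0.0297) and its ligand Tnfsf13 (APRIL) by 1.58 (adjusted p = 0.0319). O2 was the highest Old mouse for Cxcr4 (13.3 CPM, against 1.32 to 4.26 CPM in the others) and for Tnfrsf13b (11.2 CPM, against 0.409 to 6.79 CPM). Without it Cxcr4 rose by 1.49 (adjusted p = 0.0406), and Tnfrsf13b (2.15, adjusted p = 0.0636) and Tnfsf13 (1.10, adjusted p = 0.0613) lost their calls. Of 9 tested genes for antibody receptors and transport, 1 was called higher and 1 lower, where 6.78% of all genes tested were called. The neonatal Fc receptor gene Fcgrt, which protects IgG from breakdown, fell by 0.55 (adjusted p = 0.0281), and Fcgr3, a receptor for IgG on phagocytes, rose by 1.65 (adjusted p = 0.0488). Fcgr3 was 75.6 CPM in O2 and 9.60 to 21.6 CPM in the other Old mice, and without O2 its log2 fold change was 0.75 (adjusted p = 0.0894). The IgG receptor gene Fcgr4 had a log2 fold change of 2.22 (adjusted p = 0.0592), and Pigr, the polymeric immunoglobulin receptor that carries IgA across cells, one of -0.91 (adjusted p = 0.123).

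The calls on these lists also depended on the Adult mice. With any 1 Adult mouse left out, 1 to 2 of the 11 plasma cell regulators and surface markers, 0 of the 15 B cell markers and 0 of the 9 survival and homing genes were called higher, against 5, 0 and 2 without O2. Without O2 and O5, 6 of 11, 6 of 15 and 3 of 10 tested genes of these lists were called higher. Over all genes tested, 156 to 2178 were called with 1 Adult or Old mouse left out, against 1072 in the main fit. Calls thus changed beyond these lists too. Leaving out mice in this way for the lists was chosen after seeing the data.

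Neutrophil markers were also higher in Old mice, in which 4.71% of all genes tested were called higher. All 7 neutrophil markers were called higher in Old mice, among them Mpo, Elane and S100a8 with log2 fold changes of 6.41, 5.00 and 3.30 (adjusted p = 0.0153, 0.0153 and 0.0242 in edgeR), and they summed to 2.38 to 5.70 CPM in Adult mice and 10.1 to 234 CPM in Old mice. Without O2, 5 of the 7 were called, and 1 to 2 with any 1 Adult mouse left out. Without O2 and O5, 2 were called. Calls over all genes tested also changed in fits with 1 mouse left out, as given above. Of 9 T cell markers, 0 were called in edgeR, 6 had an unadjusted p under 0.05 and 1 was called in DESeq2. Between Old and Adult mice, 4385 of all 15808 genes tested had an unadjusted p under 0.05 in edgeR. DESeq2 also called more of all genes than edgeR did, as given in the last section. Cd4, Cd2 and Cd8a had log2 fold changes of 4.79, 2.34 and 2.29 (adjusted p = 0.0585, 0.0585 and 0.103 in edgeR). Cd4 was 116 CPM in O2 and 0.334 to 0.902 CPM in the other Old mice, against 0.549 to 1.28 CPM in Adult mice, and without O2 its log2 fold change was -0.51 (adjusted p = 0.492). The median log2 fold change of the 9 T cell markers was 1.87 with all mice and -0.06 without O2. T cell markers summed to 6.18 to 11.2 CPM in Adult mice and 4.04 to 201 CPM in Old mice, with O1, O4 and O5 (8.71, 7.62 and 4.04 CPM) within or below the Adult range.

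Erythroid markers, a sign of blood left in the tissue, summed to 174 to 266 CPM in Adult mice and 95.8 to 1059 CPM in Old mice. Of the 6, 0 were called in edgeR or DESeq2 and 0 had an unadjusted p under 0.05, with log2 fold changes of 0.98 and 0.91 for Hba-a1 and Hbb-bs (adjusted p = 0.282 and 0.3 in edgeR). In O5, O4 and O1 the erythroid sum was within or below the Adult range while Ighm was raised. Of 6 hepatocyte markers, 0 were called in edgeR, 3 had an unadjusted p under 0.05 and 3 were called in DESeq2. Over all 15808 genes tested, 4385 had an unadjusted p under 0.05, and DESeq2 called more genes than edgeR. Ttr, Fgb and Apoa1 had log2 fold changes of -1.04, 1.09 and 0.62 (adjusted p = 0.0782, 0.0932 and 0.107 in edgeR). The part of these other cells in the results for the 9 genes was not tested.

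No difference in antibody transcripts was detected between PDX-treated mice and vehicle-treated mice of the same age. Between the PDX and Old groups, 0 of the 9 genes were called in edgeR or DESeq2 and 0 had an unadjusted p under 0.05. Over all genes 0 were called (0%), and 834 (5.28%) had an unadjusted p under 0.05. The log2 fold change was 0.38 ± 0.41 for Ighm (SE, adjusted p = 0.837 in edgeR) and -0.22 ± 0.55 for Igkc (SE, adjusted p = 0.922), and the largest in size were 2.07 ± 1.23 for Ighg3 (SE, adjusted p = 0.793) and -1.15 ± 0.60 for Mzb1 (SE, adjusted p = 0.793). Without P3 the value for Ighg3 was -0.91 (adjusted p = 0.853), and without O2 that for Igkc was 0.76 (adjusted p = 0.479). The other members had log2 fold changes of 0.40 ± 0.62 (Igha), 1.10 ± 1.03 (Ighg1), 0.19 ± 0.75 (Ighg2b), 1.00 ± 1.01 (Ighg2c) and 0.68 ± 0.50 (Jchain).

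Isotype shares of the PDX and Old groups were close in mean but wide. The Ighm share was 89.6 ± 8.68% in PDX mice and the Igha share 3.49 ± 4.01% (SD, n = 5 each), which differed from those of Old mice by 0.206 and 0.361 percentage points (exact permutation p = 0.992 and 0.849). None of the 7 share comparisons between PDX and Old mice passed. The PDX mice ranged from P1, with an Ighm share of 98.9% and an Igkc level below all Old mice, to P3, with an IgG share of 19.3% made of all 4 IgG genes. P5 had the highest Igha share of the older mice, 10.2%.

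Compared with the same Adult mice, which this comparison shares with the one above, the PDX group differed in 3 of the 9 genes, where 2.66% of all genes tested were called (1.76% higher). Ighm rose 17.7-fold (log2 fold change 4.14 ± 0.46, SE, adjusted p = 0.000436 in edgeR), Igkc rose 9.99-fold (3.32 ± 0.61, adjusted p = 0.0096) and Jchain rose 5.39-fold (2.43 ± 0.53, adjusted p = 0.0235). The Jchain call was lost when any of the 5 Adult mice or P2, P3 or P4 was left out (adjusted p between 0.0525 and 0.0742) and with replicate number as a block (adjusted p = 0.0603). Mzb1 had a log2 fold change of 2.36 ± 0.67 (SE, adjusted p = 0.0746 in edgeR) although no PDX mouse overlapped the Adult range, which was so for 10.5% of genes in that direction. Without O2 and O5, whose spread enters the shared estimate, Mzb1 (adjusted p = 0.00353) and Ighg1 (adjusted p = 0.0397) passed too. In that fit 5 of the 9 genes were called. Calls over all genes tested were also far more numerous there than in the main fit, as given in the last section. The added calls are therefore not particular to the 9 genes.

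The remaining members had log2 fold changes of 0.92 (Igha), 1.31 (Ighg2b), 2.83 (Ighg2c), 2.16 (Ighg3) and 3.14 (Ighg1) between PDX and Adult mice, with adjusted p from 0.137 to 0.429 in edgeR. For Ighg3 the value was -0.83 without P3 (adjusted p = 0.725). The Ighm share was higher by 26.1 percentage points and the Igha share lower by 13.9 percentage points in PDX than in Adult mice (exact permutation p = 0.00794 for each, adjusted p = 0.0333), whose means are given above. Of the 11 tested genes on the list of plasma cell regulators and surface markers, 2 were called higher, where 1.76% of all genes tested were. These were Derl3 (log2 fold change 3.62, adjusted p = 0.0156 in edgeR) and Creld2 (1.33, adjusted p = 0.0484), and which cells expressed them was not tested.

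Members were also set beside the frailty index, a score of visible health deficits, and the distance run on a treadmill in the 10 Old and PDX mice. Of 18 relations, 1 passed after adjustment and only by rank. Mzb1 was lower in mice with a higher frailty index (Spearman's rho = -0.912, permutation p = 0.00051, adjusted p = 0.00918), but on the log2 CPM scale Pearson's r was -0.681 (permutation p = 0.0359, adjusted p = 0.647). Without O4 and O5, r was -0.599 and rho -0.85. O5 was the mouse farthest from the median index, whereas P1, which was kept, was as far from it as O4. The index was 0.56 in O5 and 0.33 in O4, the Old mice with the lowest Mzb1, and 0.06 in P1, which had the highest Mzb1 of the PDX mice. Counts of Mzb1 in these libraries were only 12 to 213, and the relation pools 2 groups of 5 mice, each too small for a correlation of its own. For Ighm rho was -0.565 (permutation p = 0.0929, adjusted p = 0.732) and r was -0.55 (permutation p = 0.0912, adjusted p = 0.719), and r was -0.285 without O4 and O5.

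**Figure D5:**
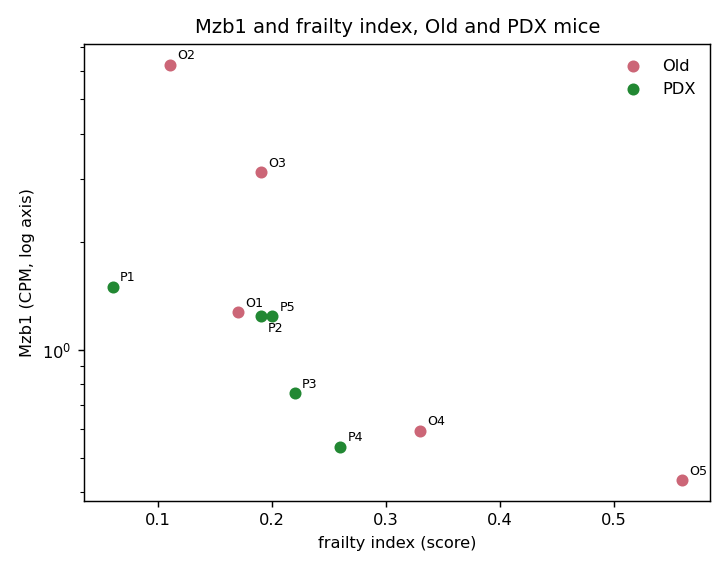
Mzb1 in CPM on a log axis against the frailty index score of the 10 Old and PDX mice, with 1 labelled point per mouse. O4 and O5 combine the highest index (0.33 and 0.56) with low Mzb1 (0.594 and 0.433 CPM), while P1 and O2 have the lowest index (0.06 and 0.11).

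Outside the lists and the immunoglobulin and T cell receptor segments, the 5 genes of 15685 whose pattern over the 15 mice was most like the mean of the 9 genes were Bcl2a1d, Hpca, Phlda3, Ms4a4d and Mustn1. Their Pearson's r with the mean scaled log2 CPM of the 9 genes was 0.857, 0.829, 0.824, 0.822 and 0.815, given as a description over mice that also differ by age. Bcl2a1d, of a family that restrains apoptosis, was at 0 to 0.319 CPM in Adult mice and at 3.89 CPM in O2, whereas the other Old mice had 0.289 to 0.743 CPM and the PDX mice 0.237 to 1.14 CPM.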

How the data were processed

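Liver RNA of 15 mice was sequenced as 50-base read pairs from poly(A)-selected, strand-marked libraries. The authors aligned reads to mm10 with STAR 2.6.0c and deposited raw counts of uniquely aligned proper pairs per Ensembl gene (featureCounts, Subread 1.6.2, annotation build 100, mitochondrial genes left out). A variance-stabilized table was not used. Symbols and exon lengths came from GENCODE M21 (55104 of 55450 identifiers matched). Genes were kept by filterByExpr (minimum count 10, minimum total 15) and fitted with edgeR 4.0.16 (TMM, quasi-likelihood, all 15 mice, 1 coefficient per group). Shares and frailty relations used exact or 100000-resample permutation tests. On simulated data the fit recovered 176 of 200 genes changed by 2 on the log2 scale between Old and Adult mice. These genes were drawn from those with a mean above 1 CPM, and no mouse was made to stand apart. The rate therefore need not hold for the members. Same-numbered mice are different animals, so numbers did not pair them. The lists, from each of which the 3 genes with the smallest p between Old and Adult mice and some preset genes were named, and the members were chosen with earlier results of these data known. Alternatives were DESeq2 1.42.0, RLE scaling, no filter, 2 groups only, no V, D and J segment genes, a replicate block, and leaving out mice. Mice were killed in batches per the study's methods, but which mouse was in which batch is not given in the sources used here, so no within-batch value could be had. Some genes of the lists are not reported here. Labels do not say whether mice shared litters or cages.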

Additional observations from a re-analysis of the deposited data

Results flagged for a closer look

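In 48 groups of 5 mice, 9 had a mouse far from the other 4 by a gap test whose chance rate is 1 in 20 groups. Among levels, Ighg3 was 26.8 CPM in P3 against 0.357 to 1.07 CPM in the other PDX mice, Igkc was 389 CPM in O2 against 52.2 to 83.6 CPM in the other Old mice, and Mzb1 was 0.0732 CPM (2 counts) in A4 against 0.201 to 0.274 CPM in the other Adult mice. Among isotype shares, Ighg3 was 4.61% in P3 against 0.0857 to 0.24% in the other PDX mice, and 8.71% in A3 against 0.583 to 1.68% in the other Adult mice. P3 also stood apart in its Ighg2b share, 3.42% against 0.184 to 1.06%, and O4 in its Ighg1 share, 2.99% against 0.0862 to 0.903% in the other Old mice. The kappa share was 84.6% in O3 against 93.5 to 94.9% in the other Old mice, and 81.9% in P1 against 93.7 to 96.4% in the other PDX mice.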

How the results depend on the processing

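The calls of Ighm, Igkc and Mzb1 between Old and Adult mice and of Ighm and Igkc between PDX and Adult mice held under every alternative run, except Mzb1 in a fit of 2 groups alone. Genes called between Old and Adult mice, 1072 in all, numbered 2524 in DESeq2, 665 without the filter on low counts, 105 in a fit of 2 groups, 237 with the replicate block and 156 to 2178 with 1 mouse left out. Of the 9 genes 3 or 4 were called. Between PDX and Adult mice 420 genes became 1383 in DESeq2, 4529 in a fit of 2 groups, 4004 without O2 and O5, and 166 to 585 with 1 mouse left out, and of the 9 genes 5 were called in each of these 3 settings and 2 to 3 with 1 mouse left out. The cause was not tested. The block on replicate number, which pairs no animals (correlations of same-numbered Old and Adult mice -0.215 to -0.110), made the Ighg2b log2 fold change between PDX and Old mice -0.24 and ended the Jchain call of PDX against Adult mice. Without O2 and O5, log2 fold changes reversed for Ighg3 between Old and Adult mice (-0.60) and for Igha (-0.10) and Igkc (0.68) between PDX and Old mice, and share differences between PDX and Old mice reversed for Igha (-1.01 points), Ighg1 (-0.0900 points) and Igkc among light chains (1.40 points), none of them past the test. The Ighm share difference between PDX and Old mice was -0.0257 points by plain counts and -0.0462 points with Ighd and Ighe in the sum. Without O2 and O5, the Old minus Adult differences of the Ighg2b share (-4.85 points, exact p = 0.0536) and the Ighg3 share (-2.36 points, exact p = 0.268) no longer had an unadjusted p under 0.05. With 1 mouse left out at a time, log2 fold changes that turned sign, none past the test, ran from -0.24 to 0.77 (Igha) and -0.87 to 1.79 (Ighg3) between Old and Adult mice, from -0.65 to 0.47 (Ighg2b), -0.91 to 3.05 (Ighg3) and -0.53 to 0.76 (Igkc) between PDX and Old mice, and from -0.83 to 3.86 (Ighg3) between PDX and Adult mice. Share differences in points ran, for Old minus Adult, from -1.79 to -1.004 (Ighg1, exact p from 0.0159), -5.52 to -3.72 (Ighg2b), -2.87 to -0.841 (Ighg3) and 3.66 to 6.54 (kappa, exact p from 0.0159). For PDX minus Adult they ran from -1.71 to -0.776 (Ighg1) and 3.37 to 6.99 (kappa). For PDX minus Old, where the sign turned and the lowest exact p was 0.286, they ran from -2.12 to 3.47 (Ighm), -1.31 to 1.44 (Igha), -0.425 to 0.733 (Ighg1), -1.77 to 0.698 (Ighg2c), -0.141 to 0.990 (Ighg3) and -2.16 to 2.43 (kappa). Depth limits Mzb1 and the IgG genes most, with counts of 1 to 35 in some libraries.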
